A study of Mus musculus with 2 samples.

Results

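Transcripts that host small RNAs, and the small RNA entries themselves, were followed in brown adipose tissue of the mouse, a fat tissue that oxidises lipid to produce heat. The members were chosen by symbol: the small nucleolar RNA host genes (Snhg), the long noncoding RNAs Malat1, Neat1, Meg3, H19 and Gas5, and symbols of microRNAs, small nucleolar RNAs (Snora, Snord), small Cajal body RNAs (Scarna) and the RNA subunits Rmrp and Rpph1. This gave 37 of 10778 symbols in the deposited table, held in 38 of 14189 rows. They fell into 16 long noncoding RNAs (12 Snhg genes with Malat1, Neat1, H19 and Gas5), 2 microRNA host transcripts (Mir22hg and Mir143hg) and 19 small RNA entries. Meg3 and the let-7 microRNAs are not analysed here.

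All mice were male C57BL6/J, 8 to 12 weeks old, and were fed for 10 days on high-fat chow that drew 60% of its calories from fat. The control mice (HFD control) had the diet alone, and the treated mice were also injected intraperitoneally with SML (5 mg/kg body weight), an abbreviation that the labels do not spell out while the series title names sesaminol. There was 1 library of poly(A)-selected RNA for each group, and the sources used here do not give the number of animals behind each library. Every difference below therefore has no replicate check, carries no p-value and compares 2 libraries. The 14 brown adipocyte markers were all detected, and Ucp1, the uncoupling protein of brown fat, stood at 8702 FPKM in HFD control and 7955 FPKM in SML.

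Small nucleolar RNAs guide chemical modification of ribosomal RNA, and most are cut from introns of a host transcript, so that the spliced Snhg RNA is what remains of the host. MicroRNAs are cut from hairpins in longer transcripts and repress messenger RNAs through a short seed sequence. Malat1 and Neat1 stay in the nucleus, where Malat1 gathers in nuclear speckles and Neat1 builds paraspeckles. H19 is an imprinted transcript of embryonic tissues and muscle. Mature small RNAs carry no poly(A) tail, so a poly(A) library holds them only by chance, whereas most long members have a tail and Malat1 ends in an A-rich stretch written in the genome.

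The microRNA entries are shown by the mature sequences that their hairpins give, because the deposited FPKM under these names stood among the highest of the members. RefSeq (GRCm38.p6) held 6 mature sequences for 5 of the 6 microRNA symbols, and Mir8097 is named only. Capitals mark the seed, bases 2 to 8 from the 5′ end:
mmu-miR-6340: gUCAGCAGcagcuucgcuuuggc
mmu-miR-6392-5p: uCUGGCGCccugguccugucagc
mmu-miR-6392-3p: gACGCAGGuuugccggguccucu
mmu-miR-703: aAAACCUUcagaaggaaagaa
mmu-miR-7060-5p: gUGAGUGCuggguagaauggga
mmu-miR-8112: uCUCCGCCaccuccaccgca
The 6 sequences had 6 different seeds, so no pair formed a seed family. At 20 to 23 bases each is far shorter than the annotated hairpins, and no fragment count below can be read as the level of a mature microRNA.

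Of the small nucleolar RNA entries 2 are shown because each rested on a lone fragment, in opposite libraries. Both are H/ACA box RNAs, which guide the change of uridine to pseudouridine, and capitals mark the ACA box that lies 3 bases before the 3′ end in the GENCODE M21 transcripts (mm10):
Snora15: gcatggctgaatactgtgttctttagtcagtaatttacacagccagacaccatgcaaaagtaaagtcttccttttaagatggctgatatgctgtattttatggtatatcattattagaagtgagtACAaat
Snora64: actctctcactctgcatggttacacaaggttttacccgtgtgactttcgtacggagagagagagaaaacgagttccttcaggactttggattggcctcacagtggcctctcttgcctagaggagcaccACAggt
Snora15 (chr5:129794546-129794676, plus strand) is 131 bases long and Snora64 (chr17:24720772-24720905, plus strand) is 134 bases long.

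FPKM, the fragments of a transcript divided by its length and by the size of the library, is the authors' deposited unit. The deposited count columns moved in steps of 0.637 (HFD control) and 0.866 (SML), and dividing by the step gave the fragments behind each value. The table held 11997795 such fragments for HFD control and 8502352 for SML. Fold values below are ratios of scaled counts, SML over HFD control, with a 95% exact conditional binomial interval. The interval covers counting error only, and PCR duplicates are not independent molecules. A gene was called higher or lower when its log2(FPKM + 1) differed by at least 1.5-fold and its mean FPKM over both libraries was at least 1. Of 9870 genes that passed the FPKM minimum, 5.45% were higher and 5.74% lower by this rule. The minimum was passed by 29 of the 37 members: all 16 long noncoding RNAs, both microRNA host transcripts and 11 small RNA entries.

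The small RNA entries held almost no fragments. Their 19 symbols summed to 20 fragments in HFD control and 20 in SML, while the 16 long noncoding RNAs summed to 2054 and 2974. Of the 19 entries 8 were listed at 0 in every column (Scarna13, Snora23, Snora26, Snora65, Snora74a, Snord15b, Snord17 and Snord22), 7 had a value in a single library and 4 in both. A count of 0 allows up to 3 fragments in a library, for counting error only. None of the 19 reached 100 fragments, and the highest, Rpph1, had 11 and 8.

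The FPKM of these entries was nevertheless high. Mir6392 stood at 816 FPKM in HFD control from 1 fragment, which placed it at rank 206 of 10761 genes by FPKM and at rank 10652 by fragments. Mir703 stood at 643 FPKM and Snora15 at 184 FPKM in the same library, each from 1 fragment, and all 3 were listed at 0 in SML. In the SML library Mir6340 stood at 507 FPKM from 3 fragments and Snora64 at 218 FPKM from 1. Mir7060 stood at 32.8 FPKM from 1 fragment there, and these 3 entries were listed at 0 in HFD control. Mir8097 stood at 88.8 FPKM in SML from a share of 0.52 of a fragment, and at 0 in HFD control. High values were thus found in either library, and for 7 entries the other library was at 0.

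**Figure D1:**
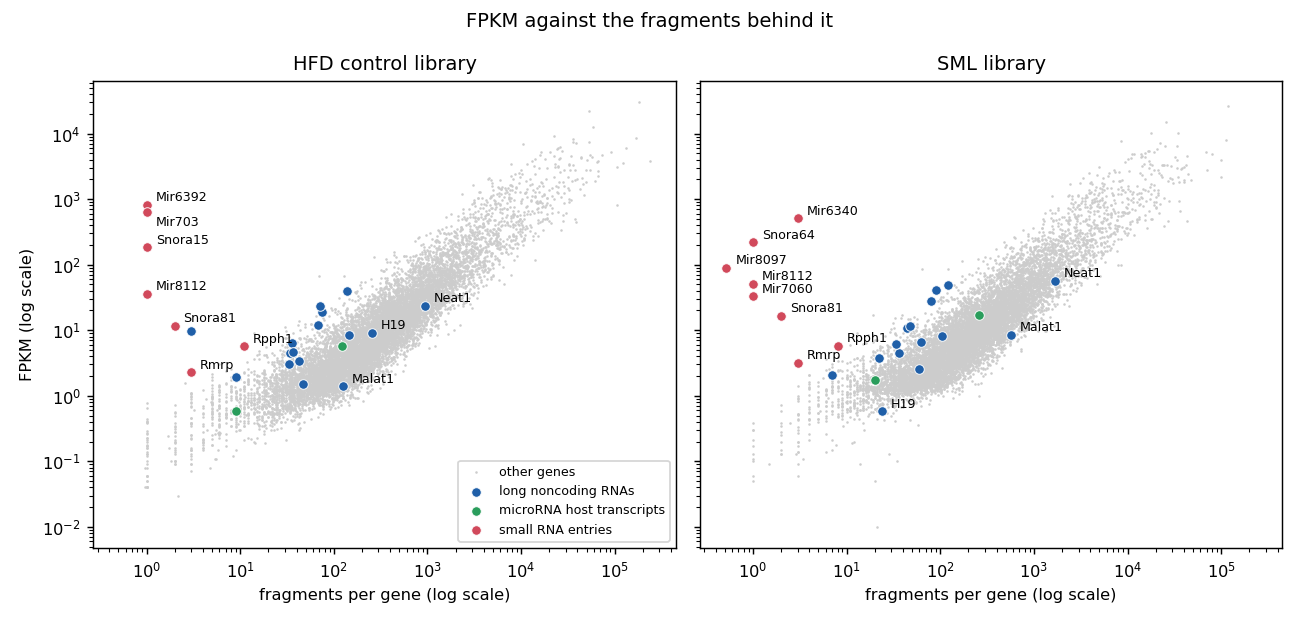
FPKM (y axis, log scale) against fragments (x axis, log scale) for every gene with both above 0, HFD control on the left and SML on the right; grey points are other genes and coloured points the 3 classes of members. Apart from Rpph1 and Rmrp, whose FPKM per fragment is within the range of other genes, the small RNA entries lie above the band, as Mir6392 does at 816 FPKM with 1 fragment, whereas most long noncoding RNAs lie within the band or at its upper edge.

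The classes differed in their median of what a fragment was worth in FPKM. This median was 36.0 FPKM per fragment over the 7 small RNA entries with a value in HFD control and 41.9 over the 8 in SML. Over the long noncoding RNAs it was 0.129 (16 with a value) and 0.170 (15), and over all genes 0.0322 and 0.0438. Across the deposited rows 4 of 13527 rows of HFD control and 5 of 12139 rows of SML were worth at least 10 FPKM per fragment, and all 9 of these row values belonged to small RNA entries. The highest value outside the small RNA entries was 3.19 FPKM per fragment in HFD control, for Snhg9, and 1.35 in SML, and the small RNA entries other than Rpph1 and Rmrp were worth more than that in the same library. The annotated small RNAs were 108 to 319 bases long. Among them Rpph1, at 319 bases the longest, had the least, 0.515 and 0.716 FPKM per fragment, and Rmrp had 0.764 and 1.07.

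These entries also led the list of differences between the libraries. Ranked by the size of the log2(FPKM + 1) difference, the 7 largest of 9870 genes were Mir6392 (-9.67), Mir703 (-9.33), Mir6340 (8.99), Snora64 (7.78), Snora15 (-7.53), Mir8097 (6.49) and Mir7060 (5.08). None of the 7 had more than 3 fragments in a library. By the size rule 4 small RNA entries were higher and 3 lower, beside 5.45% and 5.74% of all genes. For 0 of 11 did the count interval exclude a ratio of 1. At 3 fragments or fewer against 0, as for the 7, the interval could not exclude 1. The shares of all genes with an interval above 1 (25.1%) or below 1 (23.5%) are therefore no measure for them. No fold is given for these 7, since both libraries lay at or under 3 fragments. With at least 30 fragments required over both libraries, 0 of the 19 entries were left.

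**Figure D2:**
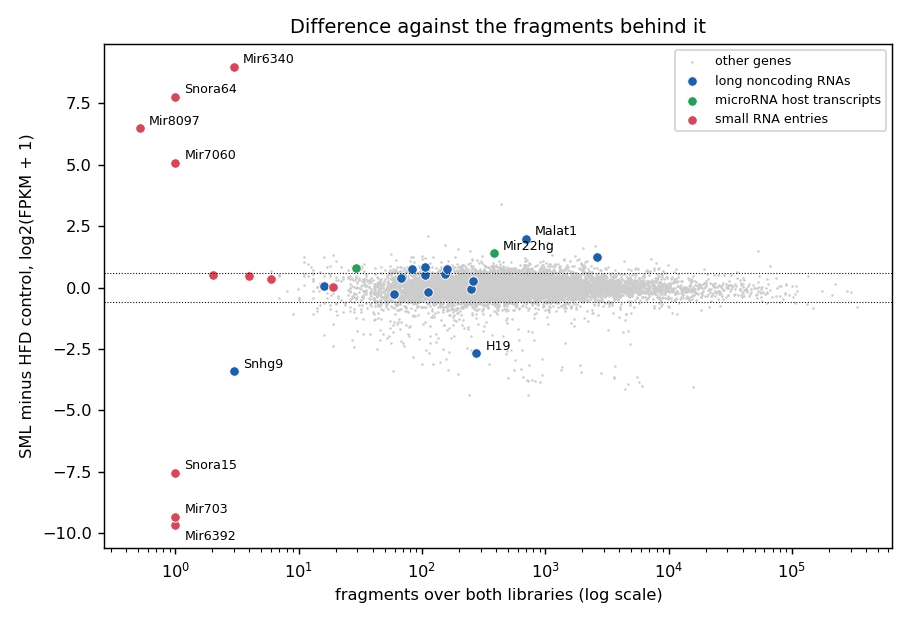
Difference between the libraries (y axis, SML minus HFD control on the log2(FPKM + 1) scale) against the fragments over both libraries (x axis, log scale) for the 9870 genes kept; dotted lines mark 1.5-fold. The 7 labelled small RNA entries with 1 or few fragments reach from -9.67 to 8.99, far outside the range of Malat1 (2.0) and H19 (-2.67), which rest on 694 and 277 fragments.

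For the 4 entries with fragments in both libraries no difference was detectable at this depth. Rpph1, the RNA subunit of RNase P that trims transfer RNA precursors, stood at 5.66 FPKM in HFD control and 5.73 FPKM in SML, with a ratio of 0.988 (0.345 to 2.70). Rmrp, the RNA subunit of RNase MRP that cuts ribosomal RNA precursors, had 3 fragments in each library (2.29 and 3.21 FPKM), a ratio of 1.36 (0.182 to 10.1). Snora81 had 2 fragments in each library (11.6 and 16.6 FPKM) and Mir8112 had 1 in each (36.2 and 51.4 FPKM). The intervals of Rmrp and Rpph1 are wide enough to hold several-fold changes in either direction.

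Most small RNA entries lay inside another gene in the mm10 annotation of GENCODE M21, 13 of the 19 on the same strand. Snora74a, which shared the start and end of its locus with Snhg4, was assigned no surrounding gene in these counts. Of the 19 entries 15 carried the start and end of a locus shared with another symbol of the table, and 9 overlapped an exon of at least 1 transcript of the surrounding gene while 7 were intronic in all. Mir6392 (chr15:84168270-84168377, plus strand) lay in an intron of Pnpla3, a lipid droplet gene with 3155 and 2112 fragments and a ratio of 0.909 (0.860 to 0.961). Snora15 overlapped an exon of Cct6a, a chaperonin subunit gene with a ratio of 0.964 (0.884 to 1.05). Snora64 lay within an exon of at least 1 transcript of Rps2, a ribosomal protein gene with 17184 and 12508 fragments and a ratio of 0.989 (0.966 to 1.01). Mir6340 (chr2:173701030-173701148, minus strand) overlapped an exon of Rab22a on the opposite strand, and Rab22a had a ratio of 1.11 (0.960 to 1.29). The genes around these entries thus had ratios between 0.909 and 1.11 where the entries themselves went between 0 and at least 184 FPKM. The sources used here do not give the strand setting of the counting, so a fragment of a host exon and one of the small RNA within it cannot be told apart.

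Of the 15 surrounding genes with values 13 lay on the strand of the entry, and none of these 13 passed the size rule. Snhg4, at the locus of Snora74a, was not among the 15, and it was called higher (ratio 1.99, 1.33 to 3.01). The 1 of the 15 that passed was Smyd1, a methyltransferase gene of striated muscle on the strand opposite Mir8112. Smyd1 had 99 and 22 fragments and a 3.31-fold lower ratio (2.07 to 5.52). Skeletal muscle fibre markers were lower beside Smyd1: 31 of 31 measured above the minimum, where 5.74% of all genes were lower. Their median difference was -3.42, and their summed level was 5633 FPKM in HFD control and 560 FPKM in SML. Host transcripts were read where the small RNA inside them was not. Snhg1 had 74 and 80 fragments while Snord22 within it was at 0, Snhg10 had 9 and 7 while Scarna13 was at 0, and Rps3 had 5425 and 4035 while Snord15b was at 0.

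The long noncoding RNAs rested on 3 to 937 fragments in HFD control and 0 to 1675 in SML. By the size rule, which called 5.45% of all genes higher and 5.74% lower, 5 of 16 were higher in the SML library. These were Malat1, Neat1, Snhg4, Snhg6 and Snhg20, while 2 were lower (H19 and Snhg9) and 9 were neither. The median difference was 0.42, beside a median of 0 and quartiles of -0.21 and 0.22 over all genes. The count interval lay above 1 for 7 of 16 and below 1 for 1 of 16, again beside 25.1% and 23.5% of all genes. Both microRNA host transcripts were higher. The median of the long noncoding RNAs was 0.21 once the trend of all genes with GC content and transcript length was removed, over the 14 with an annotated value.

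**Figure D3:**
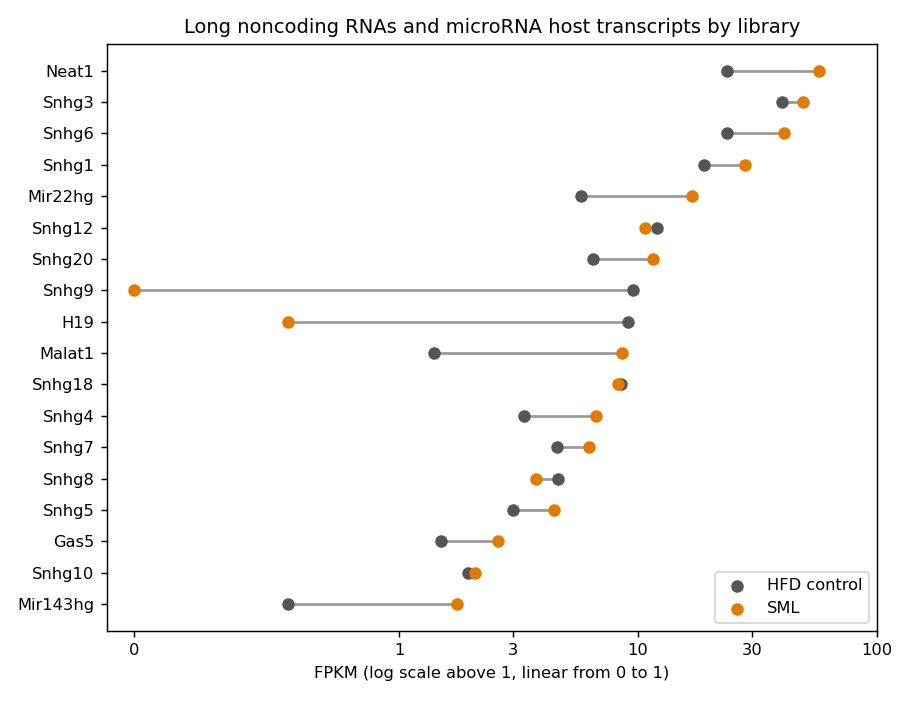
FPKM in the HFD control library (grey) and the SML library (orange) for the 16 long noncoding RNAs and 2 microRNA host transcripts; the x axis is linear from 0 to 1 and logarithmic above. Malat1 moves from 1.40 to 8.57 FPKM and H19 from 9.06 to 0.58 FPKM, while Snhg18 and Snhg10 have nearly the same level in both libraries.

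Malat1 (chr19:5795690-5802671 in mm10, an intergenic noncoding RNA in the annotation) showed the largest ratio of the long members with fragments in both libraries. It stood at 1.40 FPKM in HFD control and 8.57 FPKM in SML, from 126 and 568 fragments. The SML value was 6.12-fold higher (5.04 to 7.49), and in HFD control Malat1 was the least abundant of the 16 by FPKM. Neat1 (chr19:5824710-5845480), which lies beside Malat1 on the same chromosome, stood at 23.5 FPKM and 57.2 FPKM from 937 and 1675 fragments. It was 2.43-fold higher (2.24 to 2.63), and in SML it was the most abundant of the 16. Both nuclear RNAs were therefore higher in the same library, and both stayed past the size rule after the correction for GC content and length (differences of 1.77 and 1.17).

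Mir22hg (chr11:75461539-75466690), the noncoding transcript whose exon carries the hairpin of miR-22, stood at 5.76 FPKM in HFD control and 16.9 FPKM in SML. Its 121 and 260 fragments gave a 2.92-fold higher value (2.34 to 3.65). Mir143hg, the host of miR-143 and miR-145, which are known from smooth muscle, stood at 0.58 and 1.75 FPKM. Its ratio of 3.02 rested on 9 and 20 fragments and had an interval of 1.31 to 7.53. The hosts were read as spliced or unspliced RNA, and the level of the microRNAs they carry was not measured.

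H19 (chr7:142575530-142578146) went the other way. Its 2 rows summed to 253 fragments in HFD control and 24 in SML, a 7.76-fold lower value (5.10 to 12.3). The deposited FPKM gave a larger gap, 9.06 against 0.58, because in SML the fragments were shared between the 2 rows, with 12.0 and 12.0, and the FPKM of the second row was listed at 0. Skeletal muscle markers were lower in the same library (31 of 31, summed level 5633 and 560 FPKM). Markers of several other cell types were lower there too, where 5.74% of all genes were called lower. These were 6 of 6 erythroid markers (summed level 3740 and 1864 FPKM), 5 of 6 hepatocyte markers (80.1 and 38.4 FPKM) and 9 of 15 macrophage markers (617 and 373 FPKM, with 1 higher). Of 13 endothelial markers 3 were lower (348 and 238 FPKM), and of 11 fibroblast and preadipocyte markers 1 was lower and 1 higher (531 and 383 FPKM). Lymphocyte markers had 1 of 6 lower, and Schwann and nerve markers 2 of 5. Of 12 brown adipocyte markers above the FPKM minimum 2 were higher and 0 lower. Prdm16, a brown adipocyte marker below that minimum, stood at 1.42 FPKM in HFD control and 0.41 FPKM in SML. Its 155 and 33 fragments gave a ratio of 0.289 (0.192 to 0.423). The part of these cell types in the H19 difference was not tested. Igf2, the imprinted neighbour of H19, stood at 2.92 and 2.12 FPKM with a ratio of 0.739 (0.549 to 0.988). Fewer cells of a type and less RNA per cell cannot be told apart in these bulk libraries.

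The Snhg genes and Gas5 form the snoRNA host group, with 13 members. By the size rule 3 were higher and 1 was lower, beside 5.45% and 5.74% of all genes. The ratio was above 1 in 9 and below 1 in 4. The interval lay above 1 in 5 of the 13, beside 25.1% of all genes. Snhg4 was 1.99-fold higher (1.33 to 3.01; 3.34 and 6.68 FPKM), Snhg20 1.77-fold (1.12 to 2.82; 6.47 and 11.6 FPKM) and Snhg6 1.70-fold (1.23 to 2.36; 23.6 and 40.8 FPKM). Snhg6 was also among the most abundant of the group. Gas5, a growth arrest transcript that carries several box C/D snoRNAs in its introns, had a ratio of 1.73 (1.16 to 2.60), yet at 1.49 and 2.60 FPKM its log2(FPKM + 1) difference was 0.53, under the size rule. Snhg1 lay just under the rule as well, at 0.55, with 18.9 and 28.1 FPKM and a ratio of 1.47 (1.06 to 2.04). Inside the rule the nearest long member was Snhg20 at 0.75.

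The other snoRNA hosts had intervals that included 1. Snhg3, the most abundant host in both libraries, stood at 40.2 FPKM in HFD control and 48.9 FPKM in SML, with a ratio of 1.20 (0.932 to 1.54). Snhg5 (3.0 and 4.47 FPKM) had a ratio of 1.48 (0.898 to 2.45) and Snhg7 (4.56 and 6.24 FPKM) of 1.36 (0.819 to 2.25). Snhg10 stood at 1.95 and 2.08 FPKM from 9 and 7 fragments. Snhg18 (8.45 and 8.21 FPKM), Snhg12 (12.0 and 10.7 FPKM) and Snhg8 (4.61 and 3.75 FPKM) had ratios below 1, at 0.968 (0.745 to 1.25), 0.879 (0.588 to 1.30) and 0.808 (0.454 to 1.41). Snhg9, called lower by the size rule, went from 9.57 FPKM to 0, but these were 3 fragments and 0, and no fold is given. Ratios of hosts of the same kind of small RNA thus lay on both sides of 1. None of the 13 had an interval below 1, beside 23.5% of all genes, a share not matched for fragments. Snhg9, at 3 fragments against 0, could not have had one.

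**Figure D4:**
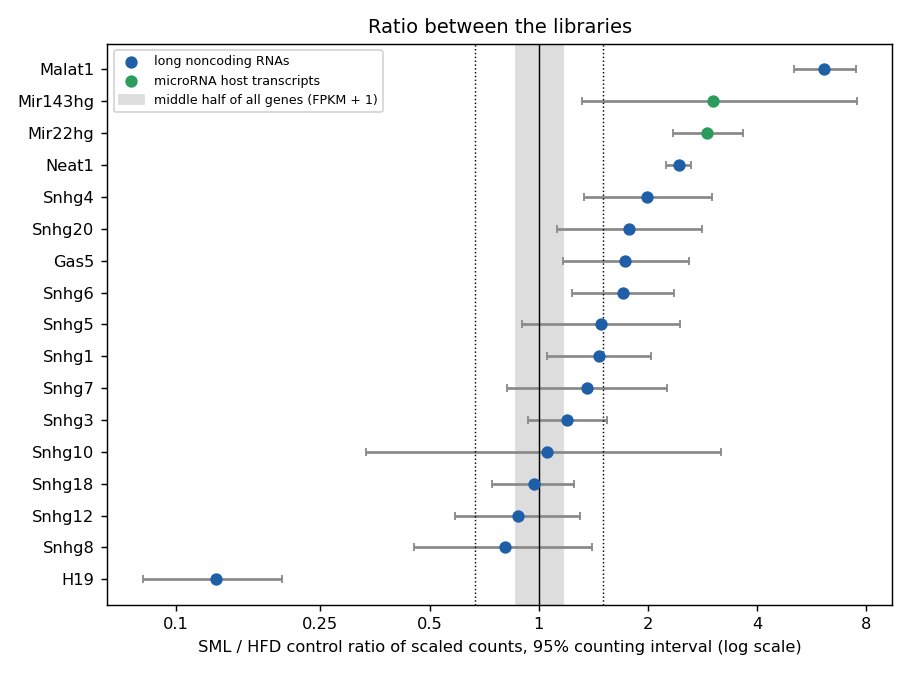
Ratio of scaled counts, SML over HFD control, on a log axis with 95% counting intervals for the 15 long noncoding RNAs and 2 microRNA host transcripts with fragments in both libraries; the grey band spans the quartiles of all genes on the log2(FPKM + 1) scale and dotted lines mark 1.5-fold. Malat1 at 6.12 and H19 at 0.129 stand at the ends, and the intervals of Snhg3, Snhg5, Snhg7, Snhg8, Snhg10, Snhg12 and Snhg18 cross 1.

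Start sites were compared as a feature that does not come from the values of the 2 libraries. Many snoRNA hosts are known as 5′TOP genes, whose RNA begins with a C and a run of pyrimidines that ties them to the translation machinery. RefSeq promoters (GRCm38.p6) matched 13 members, and for 12 of these the start equalled the 5′ end in the deposited table, 11 of them Snhg genes or Gas5. A C followed by 4 bases that were each C or T, beginning at most 2 bases before or after the annotated first base, was searched on the gene's strand only. It was found in 6 of the 11, and in 8.95% of 32530 promoters of other genes. TATAAA within 45 to 16 bases before the start, on the same strand, was found in 3 of the 11 and in 2.12% of the others. Both searches were chosen after these sequences were seen, so the shares describe the 11 hosts and are not a test. The 50 bases around the start, from 30 before it, are shown for 4 of the 6 hosts with the run, in capitals, and for Snhg20 without it:
Gas5: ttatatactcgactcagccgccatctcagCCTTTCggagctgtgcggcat
Snhg7: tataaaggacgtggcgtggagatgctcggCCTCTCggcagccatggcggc
Snhg8: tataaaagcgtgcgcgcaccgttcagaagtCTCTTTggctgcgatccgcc
Snhg12: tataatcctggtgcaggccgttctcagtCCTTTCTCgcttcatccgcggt
Snhg20: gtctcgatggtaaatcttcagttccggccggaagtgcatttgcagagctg
These lie at chr1:161035136-161035185 (plus strand), chr2:26640225-26640274 (minus), chr3:123508317-123508366 (minus), chr4:132308648-132308697 (plus) and chr11:117076753-117076802 (plus). The 6 hosts with the run had ratios from 0.808 (Snhg8, 0.454 to 1.41) to 1.73 (Gas5, 1.16 to 2.60), and among them the interval excluded 1 for Gas5 alone.

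Proteins that work with these RNAs were counted beside the 5.45% of all genes called higher and 5.74% called lower, and beside 3.44% and 5.38% of the 9524 annotated genes once the trend with GC content and length was removed. Of 20 measured proteins of small nucleolar ribonucleoproteins and their assembly, 1 was higher and 0 lower, with a median difference of 0.05. The higher gene was Dkc1, the pseudouridine synthase of H/ACA particles, at a ratio of 1.75 (1.38 to 2.23; 3.65 and 6.42 FPKM), and it was under the rule after the correction (a difference of 0.47). Nop58, a core protein of box C/D particles, had a ratio of 1.51 (1.15 to 1.97), while the assembly factor Znhit3 had one of 0.684 (0.512 to 0.907). Of 9 protein subunits of RNase P and RNase MRP, whose RNAs are Rpph1 and Rmrp, 1 was higher (Rpp30, 1.71, 1.26 to 2.31) and 0 lower, with a median of -0.03, and after the correction Rpp30 was under the rule (0.54). Cajal body and snRNP assembly genes had 0 of 14 past the rule and a median of 0.12.

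The microRNA processing genes had 0 of 13 past the rule and a median of -0.03, between -0.46 for Prkra, a Dicer partner, and 0.31 for Dgcr8, the partner of Drosha. Paraspeckle and speckle proteins belong to nuclear bodies built on or beside Neat1 and Malat1. Of 21 measured, 2 were higher and 0 lower, with a median of -0.08. The higher ones were Pnn (1.92, 1.45 to 2.55) and Cpsf6 (1.76, 1.43 to 2.17), while Rbm14 had a ratio of 0.638 (0.515 to 0.788). After the correction for GC content and length, Pnn (0.49) and Cpsf6 (0.24) were under the rule, and the 1 of 21 then higher was the splicing factor gene Srsf2 (0.63). Nonsense-mediated decay factors, which degrade spliced hosts such as Gas5, had 0 of 17 past the rule and a median of 0.17, with Smg5 at a ratio of 1.52 (1.36 to 1.69) and Smg8 at 0.640 (0.469 to 0.865).

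Hosts of small RNAs outside the symbol rule, nearly all protein-coding, were also measured. Of 62 protein-coding snoRNA hosts 6 were higher and 0 lower, with a median difference of 0.19, beside 5.45% and 5.74% of all genes. After the correction for GC content and length 2 of 61 were higher, a share near the 3.44% of all genes. Among the 6 were Tpt1 (1.55, 1.52 to 1.59) and Rnf149 (1.83, 1.43 to 2.36), which stayed past the rule after the correction (0.77 and 0.75). Rpl5 (1.61, 1.54 to 1.69) and Rps24 (1.51, 1.45 to 1.57), ribosomal protein genes, were also among the 6 but were under the rule after it (0.52 and 0.40). Of 38 further microRNA hosts, protein-coding except for the noncoding Dleu2, 3 were higher (Pank3, Zranb2 and Dleu2) and 2 lower (Myh7 and Gpc1), with a median of 0.05. Pank3, a pantothenate kinase gene that carries a microRNA of the miR-103 family, was 1.90-fold higher (1.71 to 2.10) and Zranb2 1.94-fold (1.59 to 2.36), and after the correction both were under the rule (0.49 and 0.58). Myh7, the slow myosin gene and host of miR-208b, was 14.6-fold lower (10.1 to 21.6) and is also one of the 31 muscle markers.

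Other long noncoding RNAs outside the symbol rule gave a comparison for the long members. Of 12 above the FPKM minimum, Rn45s among them, 4 were higher and 0 lower, beside 5.45% and 5.74% of all genes. Their median difference was 0.24, and it was 0.09 over the 11 annotated ones after the correction for GC content and length. Tug1 was 2.27-fold higher (1.95 to 2.66; 3.80 and 9.06 FPKM), Dleu2, the host of miR-15a and miR-16 counted above, 2.12-fold (1.60 to 2.82), 1700020I14Rik 2.03-fold (1.79 to 2.31) and 2900097C17Rik 1.69-fold (1.52 to 1.88). After the same correction these 4 differed by 0.59 to 0.72, where 3.44% of all genes were higher by the rule. Peg13, an imprinted RNA, had a ratio of 0.694 (0.580 to 0.828). Rn45s, the entry of the ribosomal RNA precursor, which has no poly(A) tail, stood at 503 FPKM in HFD control and 656 FPKM in SML (ratio 1.30, 1.28 to 1.32), and its part in the higher values of nuclear RNAs was not tested.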

How the data were processed

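Poly(A) RNA of 1 HFD control and 1 SML library was sequenced after TruSeq preparation, as the labels' protocols describe. FPKM per assembled transcript was computed by the authors, and the tools named in the submitters' processing notes were CASAVA 1.8 and Cufflinks for build mm10. The sources used here do not give the aligner, the annotation or the strand setting. In the deposited table the count columns held a scaled signal, not raw counts. Their step was found from low values of symbols with 1 row, of which 91.0% of 759 (HFD control) and 91.2% of 763 (SML) were whole multiples within 0.1. Deposited starts counted from 0 and were raised by 1. Rows were summed per symbol, and 17 symbols turned into dates by spreadsheet software were left out, which left 10761. Some FPKM values (274 rows of HFD control and 1443 rows of SML) were listed at 0 with a scaled count above 0.

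Differences used log2(FPKM + 1), a mean FPKM of at least 1 and 1.5-fold. GC content and length came from the longest GENCODE M21 transcript, with 20 bins each, for 96.5% of the genes kept and 34 of 37 members. Members were named in full for the long class, and small entries by FPKM, fragments and difference, and list members at each end. Igf2, Rian, Smyd1, Ucp1, Prdm16, Rn45s, Dleu2, 2900097C17Rik, Rpl5, Rps24, Tpt1, Srsf2 and Pank3 were named after their values were seen. Members and lists were chosen with earlier results of these data known. Alternatives covered the pseudocount, filter, scaling, row choice, unit and trend. Python 3.11.15, pandas 2.3.3 and scipy 1.17.1 were used.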

Additional observations from a re-analysis of the deposited data

How the results depend on the processing

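For single members the pseudocount, scaling, row choice, unit and trend were varied, and no called difference changed sign where a setting gave a value (Snhg4 and Mir143hg had none with the trend removed). Another pseudocount cannot change a sign. For Snhg9 and the 7 small RNA entries at 0 in 1 library, scaling, row choice and unit cannot either, so the kept sign is no check on them. The gene lists were recounted without a filter, with another scaling and with the trend removed, and the sign of their single genes was not followed. With at least 30 fragments over both libraries 5.23% of all genes were higher and 9.06% lower. There 1 long noncoding RNA was lower (H19), 1 microRNA host transcript was higher and the small RNA entries gave no value. With the GC and length trend removed, where 3.44% of all genes were higher and 5.38% lower, 1 microRNA host transcript was higher, as was 1 paraspeckle protein, 1 decay factor, 2 protein-coding snoRNA hosts, 1 gene of the list of further microRNA hosts (the noncoding Dleu2), 0 snoRNP proteins and 0 RNase P proteins, while 1 microRNA processing gene was lower. Without a filter the share of all genes called lower rose from 5.74% to 10.4%, and 1 gene each was lower among RNase P proteins, microRNA processing genes, paraspeckle proteins, decay factors and other long noncoding RNAs, and 5 of the further microRNA hosts were lower. With totals equal outside the 50 highest genes 1 decay factor was higher. Only Rpph1 had at least 10 fragments in HFD control, so the small entries' median there became 0.515 FPKM per fragment. The number of long noncoding RNAs called higher ran from 4 to 6: Gas5 passed with a pseudocount of 0.1 or 0.01 and on scaled counts, and Snhg1 with totals equal outside the 50 highest genes. In these 4 settings the share of all genes called higher also rose, from 5.45% to 8.58%, 9.12%, 8.95% and 6.68% in that order. On scaled counts 3 small entries were higher. The pseudocount of 0.01 moved H19 to -3.94 and Malat1 to 2.61. No paired analysis was possible because each group had 1 library. Without replicates none of these settings shows the spread between animals.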

Other observations

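Rian, a long noncoding RNA that carries snoRNAs and was below the FPKM minimum, had an FPKM of 0.89 in the HFD control library and of 0 in the SML library, yet it had 40 and 30 fragments and a ratio of 1.02 (0.613 to 1.68). A deposited FPKM of 0 therefore did not mark a transcript without fragments, as for the second row of H19.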
